A study of Homo sapiens with 6 samples.

Results

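CDK18 and its nearest relatives CDK14, CDK15, CDK16 and CDK17 were followed in OCI-AML2 cells, a long-established line of human acute myeloid leukemia. These 5 genes were taken by symbol from the 58233 Ensembl gene identifiers of the count table. They were picked because CDK18 was already known to differ between the groups here, so their difference between the groups is described by values, fold changes and standard errors, with no p-value. RNA with poly(A) tails was sequenced from 3 libraries labelled IKZF1-ko, after CRISPR editing aimed at IKZF1, and 3 labelled NT control, which stands for a non-targeting guide. Both groups share the parental line, and the labels of these libraries name no drug. Ikaros, the product of IKZF1, binds DNA through zinc fingers and is active mainly in blood cells. The series text speaks of 3 lines per group and the extraction text of triplicate isolation, and neither says whether a line is a clone or a pool. Replicates may thus be technical, and p-values speak only of these libraries.

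Libraries held 11300519 to 18214328 counted reads, and 13028 genes had enough counts to be tested, among them 4 of the 5 members. NT control replicate 2 and IKZF1-ko replicate 1 stood apart from the other 4 libraries on the first principal component (67.6% of the variance), a split that no label explains. The tests below therefore carry a term for this library set. Their p-values measure only the spread left once the difference between the sets is taken out. The coefficient of variation fitted over all tested genes was 4.83% with the term and 22.2% on group alone. Counts of genes that passed are also given on group alone and in the other 4 libraries, where both IKZF1-ko libraries were the deeper ones. Fits that leave out NT control replicate 2 or IKZF1-ko replicate 1 nearly repeat those 4 libraries. There the set term absorbs the remaining library that stood apart. CPM is the count scaled to library size with TMM factors. IKZF1 mRNA was higher, not lower, in every library labelled IKZF1-ko (421 to 436 CPM, against 292 to 334 CPM in NT control; log2 fold change 0.43, edgeR adjusted p = 1.23e-05). Counts do not show the edit, so the knockout is known here from the labels alone, and IKZF1-ko is used below as a label. Of 8 myeloid markers all had counts, summing to 824 to 966 CPM in NT control and 811 to 895 CPM in IKZF1-ko, although ANPEP, CD14 and ITGAM were below 1 CPM in both group means. HBB, HBA1, ALAS2, MS4A1, CD3E, CD2, EPCAM, KRT18, KRT19, MAG and SNAP25 had 0 counts. Outside the myeloid list, VIM (383 and 484 CPM) and MBP (128 and 125 CPM), which blood cells also transcribe, made up nearly all of the epithelial and stromal and the neural sums. VIM (log2 fold change 0.34, edgeR adjusted p = 5.99e-05) and the myeloid marker CSF3R (0.17, adjusted p = 0.037) rose, and the myeloid marker LYZ fell (-0.36, adjusted p = 1.23e-04). CSF3R did not pass with a surrogate variable, a covariate estimated from the counts (0.045, adjusted p = 0.67). The part of these markers in the results below was not tested.

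Cyclin-dependent kinases need a cyclin to be active, and the helix that meets the cyclin carries a short signature. CDK16, CDK17 and CDK18 are the PCTAIRE kinases and CDK14 and CDK15 the PFTAIRE kinases, each named after that signature in 1-letter amino acid code. CDK16 and CDK14 are known to be activated at membranes by cyclin Y, CDK14 in Wnt signalling through the LRP6 receptor, and CDK18 by cyclin A2 and by protein kinase A. CDK18 has been tied to the ATR checkpoint of DNA replication and to focal adhesion kinase. The label of a single PCTAIRE family therefore covers 2 signatures, and the coding sequence shows which gene carries which. The stretches below are shown because they carry the feature that names and divides the family. Each holds 51 coding bases from the GENCODE release 29 transcript of the gene, 5′ to 3′, with the 21 bases of the signature in capitals.
CDK18: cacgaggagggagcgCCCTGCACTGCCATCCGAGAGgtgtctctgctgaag
CDK16: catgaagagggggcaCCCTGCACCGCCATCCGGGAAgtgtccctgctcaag
CDK17: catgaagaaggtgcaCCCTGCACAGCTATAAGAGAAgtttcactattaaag
CDK14: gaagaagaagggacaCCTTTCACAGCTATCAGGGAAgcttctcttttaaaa
CDK15: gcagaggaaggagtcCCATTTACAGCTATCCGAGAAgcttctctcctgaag

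Within the capitals, CDK16 differed from CDK18 at 3 of 21 bases, CDK17 at 5, CDK15 at 6 and CDK14 at 7. With CDK18's base first and positions counted from 1 at the first capital base, CDK14 and CDK15 shared G5T, which lies in the codon that divides PCTAIRE from PFTAIRE. Over aligned coding bases, CDK18 was 69.3% identical to CDK16, 65.4% to CDK17, 61.4% to CDK15 and 60.1% to CDK14. None of the 10 pairs exceeded the 69.3% of CDK16 and CDK18. These transcripts were the GENCODE principal ones, and counts per gene do not show which of the 23 annotated CDK18 transcripts was made.

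CDK18 (ENSG00000117266, GRCh38 chromosome 1, 205504595 to 205532793, forward strand) was the member that set the groups apart. NT control replicates 1, 2 and 3 held 28, 83 and 27 reads of it, or 2.38, 5.67 and 2.36 CPM. The IKZF1-ko replicates 1, 2 and 3 held 390, 213 and 191 reads, or 26.1, 11.6 and 11.3 CPM. Every IKZF1-ko library lay above every NT control library, and in both groups the library that stood apart was the highest. Group means were 3.47 ± 1.90 CPM and 16.3 ± 8.43 CPM (SD, n = 3 each). The exact 95% Poisson intervals reached 7.02 CPM at most in NT control and began at 9.75 CPM in IKZF1-ko. These intervals cover counting error only. As CDK18 was picked for this difference, they are no test of it.

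The size of the CDK18 difference was nearly the same in both library sets. Between the libraries that stood apart, IKZF1-ko replicate 1 held 4.60-fold the CPM of NT control replicate 2, a pair without replicates. In the other 4 libraries the ratio of the means was 4.84. Between the sets, NT control replicate 2 held 2.39-fold the mean of the other NT control libraries, and IKZF1-ko replicate 1 held 2.27-fold the mean of its own group's others. CDK18 thus differed both by group and by library set. The log2 fold change was 2.23 (SE 0.13) with the library-set term, 2.21 (SE 0.49) on group alone, 2.27 (SE 0.19) in the 4 libraries and 2.06 (SE 0.13) with 1 surrogate variable. By mean CPM, which takes no account of gene length, CDK18 was at percentile 18 of the tested genes in NT control and 37.9 in IKZF1-ko. By fold change with the library-set term it ranked 11 of 13028, and 15 genes (0.115% of those tested) reached a log2 fold change of 2. In bulk RNA a change in the share of cells with a transcript and a change in RNA per cell cannot be told apart.

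**Figure D1:**
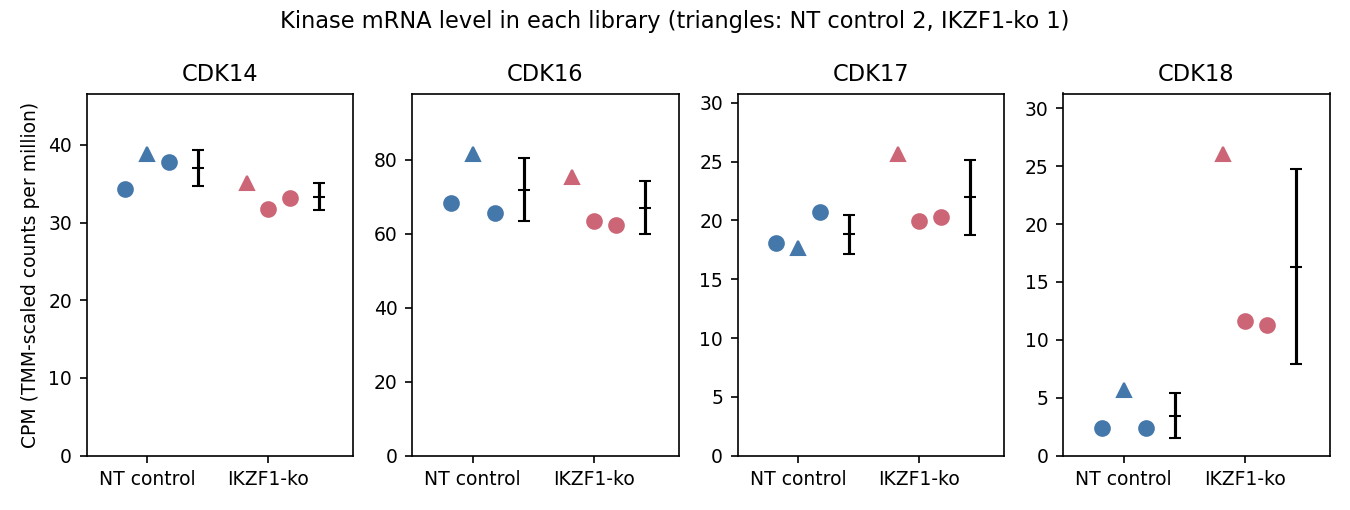
CPM of the 4 measured kinase genes in each library, NT control in blue and IKZF1-ko in red, with the group mean ± SD (n = 3) in black and triangles for the libraries that stood apart. In the CDK18 panel the IKZF1-ko libraries, at 11.3 to 26.1 CPM, all lie above the NT control libraries, at 2.36 to 5.67 CPM, whereas the groups overlap in the other panels.

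CDK16 (ENSG00000102225, chromosome X, 47217860 to 47229997, forward strand), the most studied PCTAIRE kinase and one needed for making sperm, had the most counts of the family. Its levels were 68.4, 81.6 and 65.7 CPM in NT control replicates 1, 2 and 3, and 75.4, 63.5 and 62.3 CPM in IKZF1-ko. The groups overlapped, and the libraries that stood apart were the highest of each group. The log2 fold change was -0.10 (SE 0.055) with the library-set term and -0.09 (SE 0.062) in the 4 libraries.

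CDK17 (ENSG00000059758, chromosome 12, 96278261 to 96400560, reverse strand), a PCTAIRE kinase best known from neurons, stood at 18.1, 17.7 and 20.7 CPM for the NT control replicates 1, 2 and 3. In IKZF1-ko it was at 25.7, 19.9 and 20.3 CPM. Only IKZF1-ko replicate 1 lay above all NT control libraries. The log2 fold change was 0.22 (SE 0.105) with the library-set term but 0.051 (SE 0.106) in the 4 libraries. The fits without NT control replicate 2 or without IKZF1-ko replicate 1, which nearly repeat the 4 libraries, gave 0.052. The difference of CDK17 therefore rested on the pair that stood apart, where the ratio was 1.45, against 1.04 in the 4 libraries.

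CDK14 (ENSG00000058091, chromosome 7, 90466424 to 91210590, forward strand), the PFTAIRE kinase of Wnt signalling, was measured at 34.4, 38.8 and 37.8 CPM for the NT control replicates 1, 2 and 3. In IKZF1-ko it was at 35.2, 31.7 and 33.2 CPM, and the groups overlapped through IKZF1-ko replicate 1. The log2 fold change was -0.15 in the fit with the library-set term (SE 0.071), on group alone (SE 0.11) and in the 4 libraries (SE 0.082). CDK14 shares exon positions with CLDN12, AC002456.2 and AC006153.1 on its own strand, so its counts are uncertain, whereas GENCODE release 29 shows no exon overlap for the other 4 genes. CDK15 (ENSG00000138395, chromosome 2, 201790461 to 201895550, forward strand), the other PFTAIRE kinase, had 0 counts in all 6 libraries. At these depths 3 counts, the floor set for a count of 0, correspond to 0.164 to 0.262 CPM, so CDK15 mRNA below that level was not detectable.

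Of the 4 members measured, 1, CDK18, had groups that did not overlap, as did 9.35% of all tested genes (5.28% with IKZF1-ko above and 4.07% with it below). For scale, an edgeR adjusted p under 0.05, the threshold used below for other genes, was reached with the library-set term by 13.5% of all tested genes (6.93% rising, 6.62% falling). In the 4 libraries 14.7% of tested genes passed (7.64% rising, 7.1% falling), and with the surrogate variable 8.04% (4.41% rising, 3.63% falling). On group alone 0% passed, although 3.5% had an unadjusted p under 0.05. The members were chosen on this contrast, so their own calls are not given and nothing is read from their count.

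**Figure D2:**
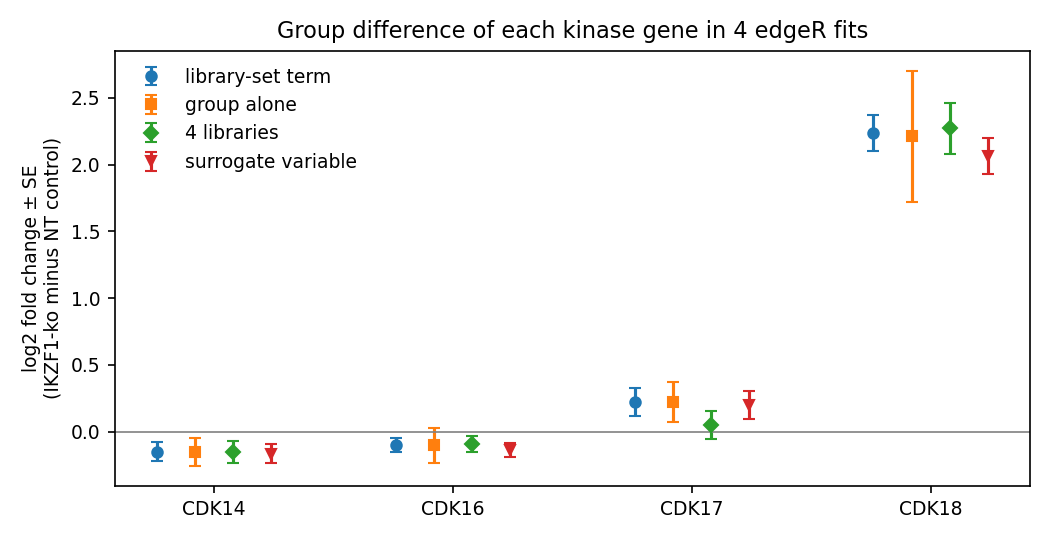
Log2 fold change (IKZF1-ko minus NT control) with its SE for the 4 measured kinase genes, from edgeR with a library-set term, on group alone, in the 4 libraries and with 1 surrogate variable. CDK18 lies between 2.06 and 2.27, and CDK14 and CDK16 lie below 0 in each of these fits, while CDK17 lies near 0 in the 4 libraries.

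Levels of different members were compared per kilobase of exon, as CPM per kb. Over the 6 libraries CDK16 was at 10.7 ± 1.16, CDK14 at 5.14 ± 0.397, CDK17 at 3.12 ± 0.437 and CDK18 at 1.45 ± 1.31 CPM per kb (SD, n = 6). The first 3 kept this order in each library without overlap of their ranges. CDK18 was at 0.348, 0.829 and 0.346 CPM per kb in NT control replicates 1, 2 and 3 and at 3.82, 1.70 and 1.65 in IKZF1-ko. In IKZF1-ko replicate 1 it came close to CDK17, which was at 3.92 CPM per kb there, and the ranges of these 2 genes overlapped in the IKZF1-ko group. CDK18 made up 1.81% to 3.82% of the family's summed level in NT control and 8.64% to 15.6% in IKZF1-ko. The sum itself was 19.8 ± 1.66 and 20.9 ± 3.06 CPM per kb (SD, n = 3 each), with overlapping groups.

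**Figure D3:**
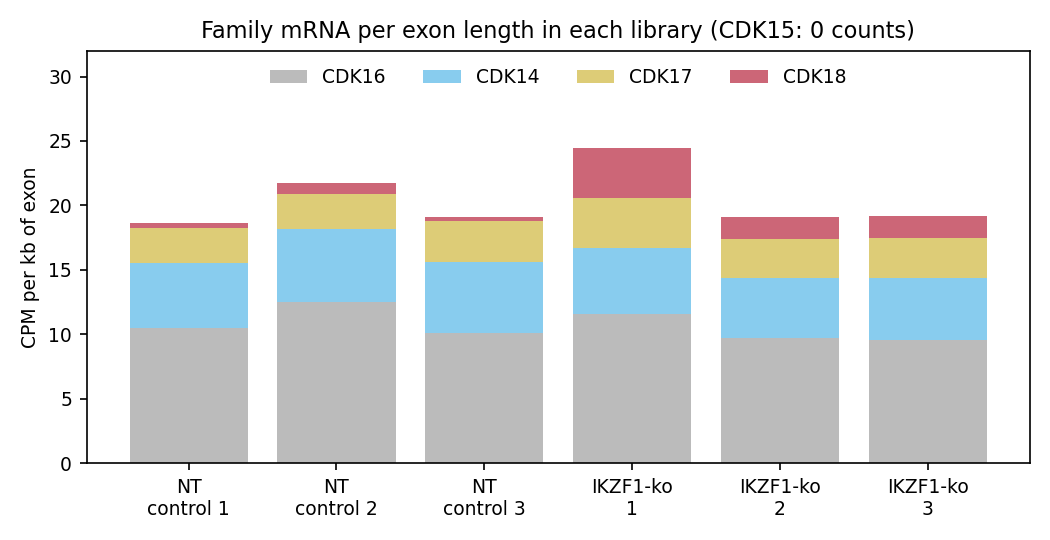
Stacked bars of CPM per kb of exon for CDK16, CDK14, CDK17 and CDK18 in each library. The CDK18 part is thinnest in NT control (0.346 to 0.829 CPM per kb) and thickest in IKZF1-ko replicate 1 (3.82 CPM per kb), while CDK16 is the largest part of each bar.

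The sequence before the CDK18 start is shown because IKZF1 encodes a DNA-binding protein and CDK18 is the member that differed. The 176 bases from the RefSeq promoter table (GRCh38.p14, forward strand, chr1:205504419-205504594) end where the GENCODE gene begins, and capitals mark matches to the letters TGGGAA or GGGCGG on either strand.
CDK18 upstream: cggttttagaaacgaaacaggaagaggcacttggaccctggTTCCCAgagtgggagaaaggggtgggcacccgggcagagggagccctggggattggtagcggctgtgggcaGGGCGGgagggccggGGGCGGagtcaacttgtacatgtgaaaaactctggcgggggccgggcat

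TGGGAA, letters found in Ikaros motifs, was matched on the reverse strand at 205504460 to 205504465. In windows of 250 bases before to 50 after a start, TGGGAA was in 24% of all 35116 promoters of the table, and in 2 of the 10 windows of this family, 1 of CDK18 and 1 of CDK14. GGGCGG, letters bound by SP and KLF factors, was in 45% of all promoters and in 4 family windows, of CDK16, CDK17 and CDK18. CCGGAAG (ETS factors, 10.3% of promoters) and CACGTG (E-box factors, 7.26%) were in 0 family windows. The matches before CDK18 did not overlap one another. A match describes letters only, and binding was not measured.

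Genes around CDK18 on chromosome 1 were read to see whether the neighbourhood moved with it. Of 34 annotated genes within 500 kb of the gene, 19 had 0 counts in all libraries, among them LEMD1 and BLACAT1 before the gene, and 11 were tested. With the library-set term 1 rose and 1 fell. ELK4, an ETS transcription factor gene and the nearest tested gene after CDK18 (64.8 kb away), rose with a log2 fold change of 0.28 (SE 0.074, edgeR adjusted p = 0.019). Its levels were 82.8, 104.7 and 82.3 CPM in NT control replicates 1, 2 and 3, and 156.2, 86.5 and 91.5 CPM in IKZF1-ko. The groups overlapped, and ELK4 did not pass in the 4 libraries (0.11, adjusted p = 0.23). It also did not pass without NT control replicate 2 or IKZF1-ko replicate 1, fits that nearly repeat the 4 libraries. It was lost with a surrogate variable (adjusted p = 0.14) and without IKZF1-ko replicate 3 as well. Its exons overlap those of MFSD4A and AC096533.1 on the opposite strand.

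SLC26A9, an anion transporter gene 380 kb away, fell by 0.83 on the log2 scale (SE 0.17, edgeR adjusted p = 0.0032) and passed in all 6 fits that left out a library. It was at 7.64, 4.71 and 9.19 CPM in NT control replicates 1, 2 and 3, and at 2.01, 4.91 and 5.38 CPM in IKZF1-ko, with overlapping groups. It overlaps AL713965.1 on the opposite strand. The nearest tested gene before CDK18, the pseudogene SNRPGP10 (153 kb), was at 5.17 ± 0.967 and 4.64 ± 1.31 CPM (SD, n = 3 each; adjusted p = 0.58), and its reads may come from near-identical copies. The tested neighbours ranged from -0.83 to 0.28 on the log2 scale, with a median of -0.08. In the 4 libraries 0 neighbours rose and 2 fell, SLC26A9 and NUCKS1 (log2 fold change -0.15, adjusted p = 0.013). The counts of 1 and 1 of 11 stand beside 6.93% and 6.62% of all tested genes.

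Of the 4 genes of cyclins that activate these kinases, 1 rose and 1 fell with the library-set term (median log2 fold change 0.02). Of all tested genes, 6.93% rose and 6.62% fell. CCNY, which encodes cyclin Y, averaged 93.2 ± 2.34 CPM over the NT control libraries and 94.1 ± 4.28 CPM over those of IKZF1-ko (SD, n = 3 each), a log2 fold change of 0.01 (edgeR adjusted p = 0.91). Its relative CCNYL1 was at 19.2 ± 1.60 and 19.6 ± 0.959 CPM (adjusted p = 0.88), and shares exon positions with other genes. CCNA2, the gene of cyclin A2, fell by 0.22 on the log2 scale (SE 0.060, adjusted p = 0.023), from 129, 92.5 and 143 CPM in NT control replicates 1, 2 and 3 to 87.9, 107.6 and 116.6 CPM. CCND3, a D-type cyclin gene reported to pair with CDK14, rose by 0.23 (SE 0.051, adjusted p = 0.0072), from 230, 73.4 and 232 CPM to 94.4, 264 and 256 CPM. In both genes the library that stood apart was the lowest of its group, and the groups overlapped. CCND3 passed in each fit that left out a library and was at 0.44 with the surrogate variable, whereas CCNA2 was lost without NT control replicate 1 or 3, without IKZF1-ko replicate 2 or 3, and with a surrogate variable (-0.15, adjusted p = 0.15). CCNA2 overlaps EXOSC9, and CCND3 overlaps AL513008.1, on the opposite strand.

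The 8 lists of related genes, chosen with earlier results of these data known, held 99 different genes, of which 83 were tested. With the library-set term 6 rose and 9 fell, 18.1% of those tested, against 13.5% of all tested genes. On group alone 0 passed. Of these 15 genes, 14 also passed in the 4 libraries, and 7 did so with the surrogate variable. With DESeq2 8 of them passed, and CCNI, YWHAH, PKIB, CAPRIN2, ATR, CLSPN and PXN did not. None of the 15 changed sign in any alternative run. PXN alone among the 15 had non-overlapping groups. Of all 83 tested list genes 3 had them, beside 9.35% of all tested genes.

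Among the other cyclin-dependent kinases, 0 of 16 tested genes passed, where 13.5% of all tested genes did. The median log2 fold change was -0.004, against 0.002 over all tested genes. CDK6 (366 ± 7.98 and 348 ± 19.7 CPM) and CDK4 (197 ± 32.6 and 182 ± 38.9 CPM) did not pass (SD, n = 3 each; edgeR adjusted p = 0.32 and 0.10). In the 4 libraries 1 of the 16 rose, where 7.64% of all tested genes did. CDK11A and CDK11B are near-identical copies that can share reads. Of 20 tested other cyclins, 2 rose and 1 fell, with a median of -0.01, where 6.93% of all tested genes rose and 6.62% fell. The mitotic cyclin gene CCNB1 fell by 0.23 on the log2 scale, and CCNG1 (0.18) and CCNI (0.15) rose. All 3 were lost with the surrogate variable and without NT control replicate 1 or IKZF1-ko replicate 3. CCNB1 was also lost without IKZF1-ko replicate 2, and CCNG1 and CCNI without NT control replicate 3. No tested cyclin or other CDK gene had a log2 fold change larger in size than 0.37. CDK18, at 2.23, was picked for its known difference, and only 0.115% of all tested genes reached a log2 fold change of 2.

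**Figure D4:**
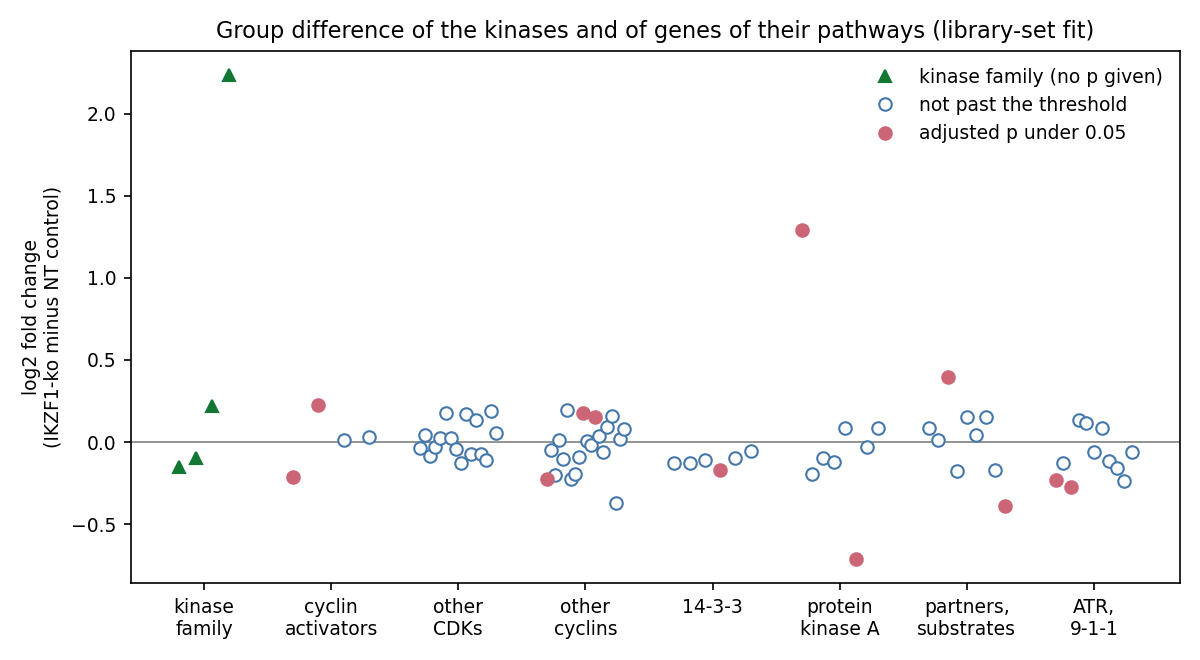
Log2 fold change (IKZF1-ko minus NT control) in the fit with the library-set term for the 4 measured kinases (triangles, given without a p-value) and the tested genes of 7 of the related lists (circles, filled where the edgeR adjusted p was under 0.05). CDK18 lies at 2.23, and the highest circle is PKIB at 1.29.

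Protein kinase A phosphorylates CDK16 and CDK18. Of 8 tested genes of its subunits and inhibitors, 1 rose and 1 fell (median -0.07), where 6.93% of all tested genes rose and 6.62% fell. PRKAR1B, a regulatory subunit gene, was at 9.42, 7.44 and 9.71 CPM for NT control replicates 1, 2 and 3, and at 2.87, 7.54 and 6.09 CPM in IKZF1-ko. Its log2 fold change was -0.71 (SE 0.17, edgeR adjusted p = 0.0095), and it overlaps DNAAF5 on the opposite strand. PKIB, an inhibitor gene, rose by 1.29 (SE 0.34, adjusted p = 0.017) from 0.764, 0.273 and 1.14 CPM to 0.936, 1.97 and 2.37 CPM. These levels rest on few reads, the groups overlapped, and PKIB shares exon positions with Z99129.3 on its strand. The call was lost without NT control replicate 1 or IKZF1-ko replicate 3, and with DESeq2. The catalytic subunit genes PRKACA (-0.10) and PRKACB (-0.12) did not pass.

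Of 6 tested genes of 14-3-3 proteins, which bind phosphorylated CDK16 and cyclin Y, 1 fell and 0 rose (median -0.12), where 6.62% of all tested genes fell. It was YWHAH, at 135, 78.9 and 135 CPM in NT control replicates 1, 2 and 3 and at 75.8, 116.9 and 113.6 CPM in IKZF1-ko (log2 fold change -0.17, edgeR adjusted p = 0.035). In the 4 libraries 3 of the 6 fell, where 7.1% of all tested genes did, and with the surrogate variable 0 did, where 3.63% of all did. YWHAH was also lost without NT control replicate 1 or 3 and without IKZF1-ko replicate 2 or 3, and it shares exon positions with Z82190.2 and C22orf24.

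Among 9 tested genes of described partners and substrates, 1 rose and 1 fell (median 0.04), where 6.93% of all tested genes rose and 6.62% fell. TDRD7, a Tudor-domain protein gene known as a CDK17 partner, had 79.3, 127 and 84.8 CPM for the NT control replicates 1, 2 and 3. In IKZF1-ko it was at 92.7, 63.6 and 65.3 CPM, lower than NT control within each library set. It fell by 0.39 on the log2 scale (SE 0.054, edgeR adjusted p = 1.37e-04) and passed in every fit that left out a library, with DESeq2 and with the surrogate variable. CAPRIN2, whose protein links cyclin Y to LRP6, rose by 0.39 (adjusted p = 0.025) but passed in 0 of the 6 fits that left out a library and not in the 4 libraries (adjusted p = 0.097). LRP6 itself had 0 counts. CDKN1B, the gene of the inhibitor p27 and a described CDK16 substrate, had a log2 fold change of 0.15 (adjusted p = 0.12).

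Of 11 tested genes of the ATR and 9-1-1 checkpoint, which CDK18 has been tied to, 2 fell and 0 rose (median -0.11). Of all tested genes, 6.62% fell and 6.93% rose. The kinase gene ATR was at 39.8, 25.1 and 41.4 CPM in NT control replicates 1, 2 and 3 and at 22.7, 33.4 and 34.1 CPM in IKZF1-ko (log2 fold change -0.23, edgeR adjusted p = 0.043). The gene of the adaptor claspin, CLSPN, was at 46.9, 15.8 and 48.7 CPM and at 13.8, 38.6 and 39.3 CPM (-0.27, adjusted p = 0.018). In both genes the library that stood apart was the lowest of its group. With a surrogate variable neither passed (ATR -0.14, CLSPN -0.06), and each was lost without NT control replicate 1 or 3 and without IKZF1-ko replicate 2 or 3. Both have exon overlaps on the opposite strand.

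PTK2, the gene of focal adhesion kinase, had only 2 counts in all, whereas its relative PTK2B was well measured and did not pass (log2 fold change 0.06, edgeR adjusted p = 0.41). CFL1, the gene of the actin-severing protein cofilin, fell by 0.29 (SE 0.048, adjusted p = 7.35e-04) from 954, 653 and 949 CPM in NT control replicates 1, 2 and 3 to 483, 819 and 820 CPM. LIMK1, a kinase that phosphorylates cofilin, fell by 0.35 (SE 0.068, adjusted p = 0.0026) from 49.9, 39.3 and 49.95 CPM to 30.9, 41.3 and 37.1 CPM. Both were lower in IKZF1-ko within each library set, and both passed in every fit that left out a library and with a surrogate variable. The adaptor gene PXN rose by 0.62 (adjusted p = 0.029) from 5.94, 4.85 and 3.32 CPM to 6.55, 7.37 and 7.92 CPM, but was lost without NT control replicate 3 or without IKZF1-ko replicate 2 or 3. CFL1 and PXN have exon overlaps on the opposite strand.

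The genes whose pattern over the 6 libraries was most like that of CDK18 were ranked by the root-mean-square difference of centred log2 CPM, among 10346 genes whose higher group mean was at least 5 CPM. The median gene differed from CDK18 by 1.25. The closest were HSPB7, a small heat shock protein gene (0.31), MMP2-AS1, a non-coding RNA gene (0.33), PRAM1, an adaptor gene of myeloid cells (0.34), and AXL, a receptor tyrosine kinase gene (0.36). The prostacyclin receptor gene PTGIR (0.47) and the kallikrein gene KLK1 (0.51) followed. Of these genes only PRAM1 reached 5 CPM in both group means, and the others passed that filter through IKZF1-ko alone. PRAM1 was at 22.8, 44.6 and 22.4 CPM for NT control replicates 1, 2 and 3, and at 119.5, 76.5 and 75.5 CPM in IKZF1-ko. AXL was at 2.55, 4.10 and 1.84 CPM and at 11.8, 8.14 and 7.57 CPM. Each of these 6 genes was highest in IKZF1-ko replicate 1, which their choice by likeness to CDK18 favours. None lies on the part of chromosome 1 around CDK18. The other family members were not among the closest genes: CDK17 ranked 2018 (1.12), CDK16 4674 (1.23) and CDK14 6072 (1.28). CDK17 and CDK16 were below the median difference of 1.25, and CDK14 was above it. The 6 closest genes were chosen for their likeness over only 6 libraries, which share their group and library set. Their rise in IKZF1-ko follows from that choice, so no test is given.

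**Figure D5:**
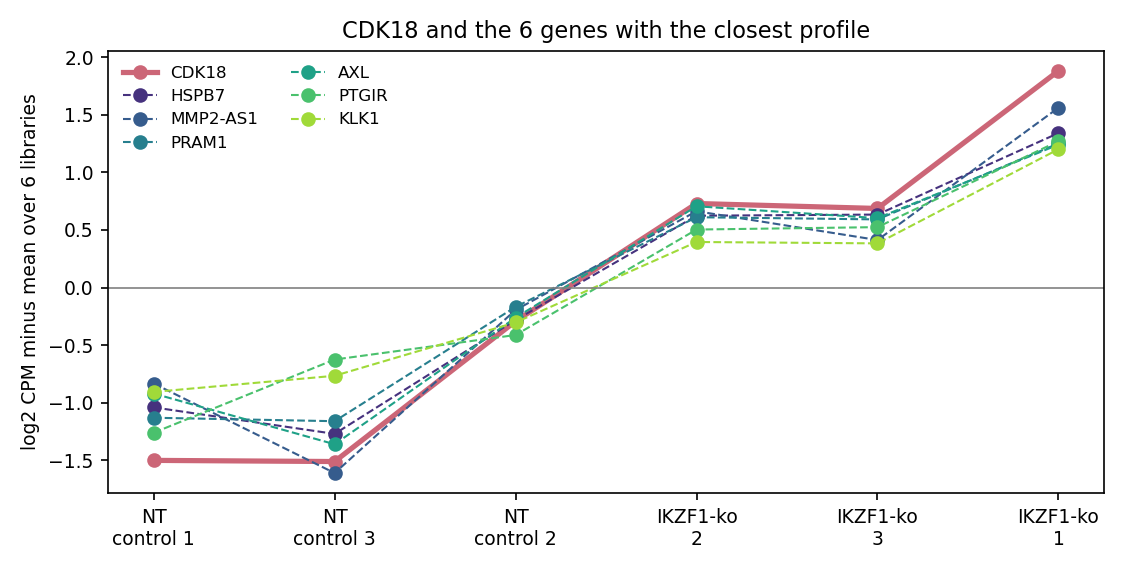
Log2 CPM minus the mean over the 6 libraries for CDK18 (thick line) and the 6 genes with the closest profile, with libraries ordered by group and library set. CDK18 runs from -1.51 in NT control replicate 3 to 1.88 in IKZF1-ko replicate 1, and each of the other lines has a smaller value in IKZF1-ko replicate 1.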

How the data were processed

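Read counts per Ensembl gene were used as the authors deposited them, unscaled and whole. The submitters' processing notes list Trimmomatic, STAR and GRCh38 but no versions, and the labels' protocols name a stranded mRNA kit. Not given in the sources used here: the read counter, its strand setting and the annotation. The table has 0 columns of other samples. Symbols were found for 57392 identifiers, and GENCODE release 29 gave positions, exon lengths and overlaps. The filterByExpr function of edgeR 4.0.16 (R 4.3.3) kept 13028 genes with 99.9% of counts, and log2 CPM took a prior count of 2 after TMM scaling. Tests were edgeR's two-sided quasi-likelihood F test with a term for the library set (the sign of the first principal component) beside the group, adjusted by Benjamini-Hochberg over all tested genes, with a threshold of 0.05. Because the set was read from the same counts, its p-values leave out the uncertainty of choosing it. Standard errors were the fold change over the square root of F.

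The members, the gene lists, the library-set term and the alternatives were chosen with earlier results of these data known. Named genes were the members, the tested cyclin activators, up to 4 called genes of each other list or its 2 most abundant, called and nearest neighbours of CDK18, and the 6 most alike genes. NUCKS1, PRKACA, PRKACB, CDKN1B, PTK2B, CDK11A and CDK11B and the genes at or near 0 counts were named after their values were seen. Same-numbered libraries deviated together in only 1 of the 3 pairs (correlations of -0.66, -0.69 and 0.59). Differently numbered ones of the same library set did so too, as NT control replicate 2 with IKZF1-ko replicate 1 (0.82). These correlations therefore cannot show whether numbers mark pairs, and replicate numbers were not taken as pairs. No 2 replicates agreed within sampling noise. Tests were checked on simulated counts. A few items, among them 1 list's own counts, are not reported here. Alternatives were group alone, the 4 libraries, a surrogate variable (sva 3.50.0), a replicate block, DESeq2 1.42.0, limma-voom (limma 3.58.1), other scalings and count filters, and each library left out, and figures used matplotlib 3.10.9.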

Additional observations from a re-analysis of the deposited data

How the results depend on the processing

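The CDK18 log2 fold change ranged from 2.06 to 2.27 over 16 alternatives, and those of CDK14 (-0.19 to -0.11) and CDK16 (-0.14 to -0.09) kept their sign. CDK17, at 0.22, was 0.051 in the 4 libraries, and 0.052 to 0.33 when libraries were left out in turn. The 1765 genes called became 0 on group alone, where 456 genes (3.50%) had an unadjusted p under 0.05, 1047 with a surrogate variable and 1159 with DESeq2. With 1 library left out they ranged from 811 (without IKZF1-ko replicate 3) to 1943, with 948 without NT control replicate 1. The 15 pathway list genes called became 0 on group alone, 7 with a surrogate variable and 8 with DESeq2, and 5 to 18 with 1 library left out. They fell to 6 without NT control replicate 1, 7 without NT control replicate 3 and 5 without IKZF1-ko replicate 3. The 2 neighbours of CDK18 called became 0 on group alone and 1 with a surrogate variable, and 1 to 3 with 1 library left out. A replicate block in place of the library-set term called 0 genes, 0 pathway list genes and 0 neighbours, and the samples share only a number. The cause of these changes was not tested. The low reads of CDK18 in NT control (27 to 83) and of PKIB limit the precision of their fold changes.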
